A study of Mus musculus with 16 samples.

Results

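Red cells are present in any tissue that was not flushed of blood, and 9 genes that mark the red cell lineage were read from arrays of newborn mouse inner ears: Alas2, Fech, Slc4a1, Ank1, Gata1, Klf1 and the embryonic globins Hba-x, Hbb-y and Hbb-bh1. All probe sets that the array's annotation assigns to one of these symbols were taken, which gave 13 of the 12422 probe sets that are not array controls, and all 9 genes were represented, of 8251 that the array names singly. The COUP-TFI-/- pools came from homozygous null mice and the wild-type pools from mice of the same strain, 129SvEv, both at postnatal day 0. Whole inner ears were dissected, and each pool of total RNA combined several tissue samples, so differences between single animals cannot be seen. Hybridizations were done in 2 sets, A and B, on separate occasions. A set held 1 pool per genotype, each on 2 chips, which gives 4 chips per genotype and 8 Affymetrix MG-U74Av2 chips in all. Values of every chip were deposited after GCRMA normalization, as log2 levels, and after dChip normalization, as linear intensities. A log2 difference of 1 is a doubling in signal.

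Erythroid precursors divide and fill with hemoglobin in the liver, spleen and marrow of the newborn, then expel the nucleus and enter the blood as reticulocytes, which still carry globin RNA. Heme is built in these cells from a first step set by Alas2 to a last step set by Fech, and the finished cell is held in shape by a membrane skeleton that ankyrin 1 ties to the anion exchanger Slc4a1. Gata1 and Klf1 are transcription factors of the nucleated precursor. In the mouse the embryonic globins belong chiefly to the primitive red cells of the yolk sac, and the adult globins to the later, definitive ones.

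The genotype label was borne out by Nr2f1, the gene that encodes COUP-TFI: its GCRMA level lay between 4.68 and 5.27 on the COUP-TFI-/- chips and between 7.74 and 8.83 on the wild-type chips, a difference of -3.37 (adjusted p = 5.9e-11, limma). Across all probe sets the median absolute difference between genotypes was 0.06 in GCRMA values, that between sets was 0.16, and that between duplicate chips was 0.09. Of 12 listed inner ear genes, the brightest in GCRMA values were Slc12a2 and Gjb2. Slc12a2, the sodium, potassium and chloride cotransporter of the stria vascularis, had pool means from 9.78 to 10.79. Gjb2, a gap junction protein of the cochlea, had pool means from 9.42 to 10.25. The dimmest of the list, Atoh1, had a mean level of 6.71, at the 39.1 percentile of all probe sets. In RNA from whole tissue, fewer cells of a type and less RNA per cell cannot be told apart.

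None of the erythroid and embryonic globin probe sets passed the test between COUP-TFI-/- and wild-type inner ears, whereas several passed it between the hybridization sets. Alas2, Fech, Ank1 and Hbb-bh1 were higher in set A than in set B in GCRMA values, Alas2 by 0.53 ± 0.10 and Hbb-bh1 by 0.31 ± 0.10 (log2, SE of the fit to 4 pool means). The 4 bright probe sets for adult globins were higher in set A as well. Klf1, Gata1, Slc4a1, Hba-x and Hbb-y had no called difference in either comparison. By mean level over the 8 chips Alas2 stood at the 88.2 percentile of all probe sets, the Ank1 probe sets at 33.5 to 84.2, Hbb-bh1 at 71, the Gata1 probe sets at 36.6 and 51.7, Klf1 at 54.7, Slc4a1 at 46.1, Hba-x at 29.8, the Hbb-y probe sets at 28.4 and 36.8 and Fech at 9.02. Brightness also depends on the probes, so no order between genes is read from these.

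**Figure D1:**
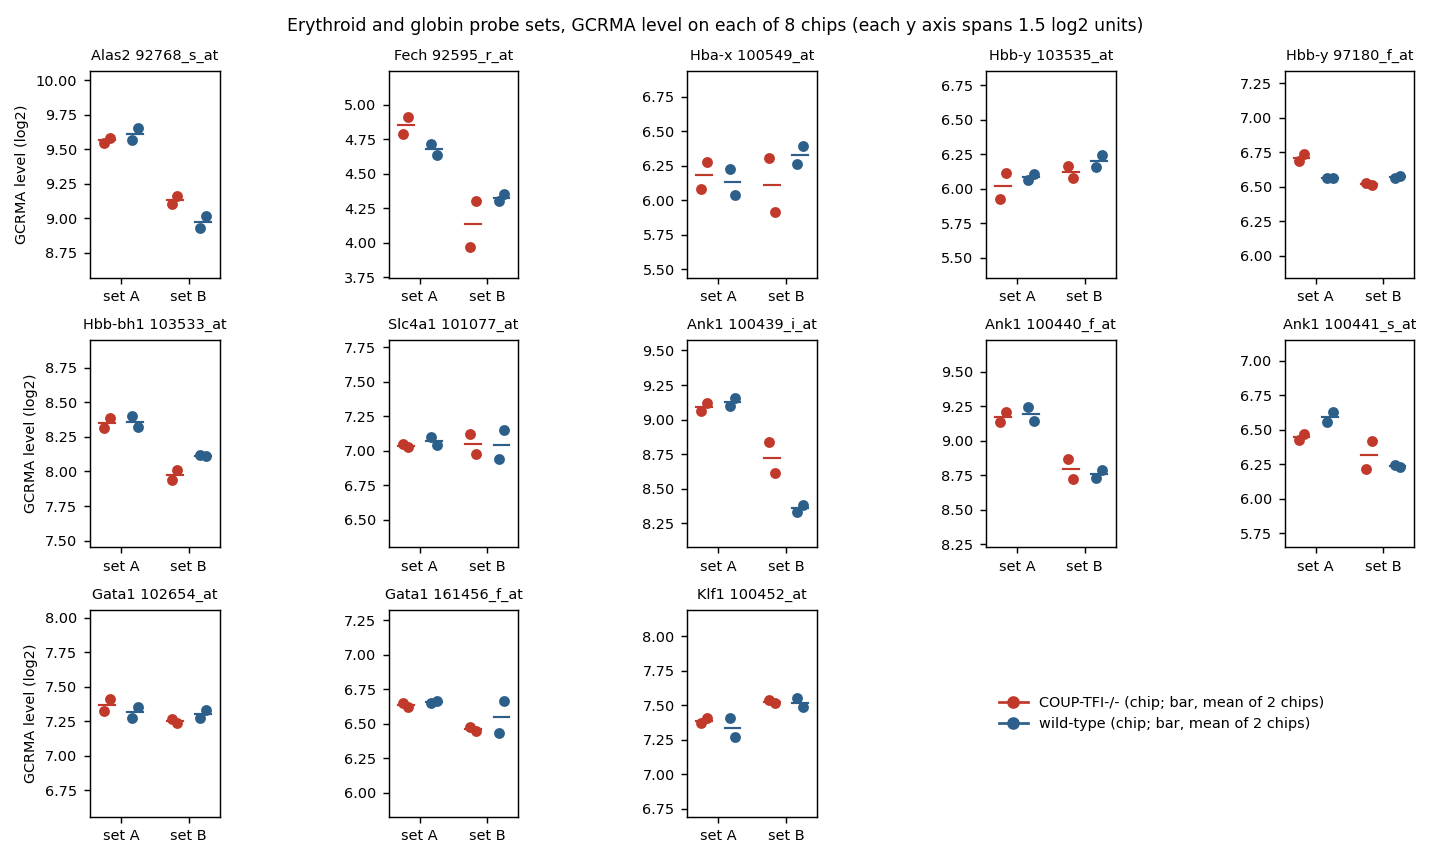
GCRMA level (log2) of each of the 13 probe sets on each chip, with sets A and B along the x axis and, within a set, COUP-TFI-/- (red) left of wild-type (blue). Points are single chips and bars are means of 2 chips; Alas2, Fech, Hbb-bh1 and all Ank1 probe sets have every set A point above every set B point.

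Of the 13 probe sets, 0 passed an adjusted p of 0.05 for genotype in GCRMA values, where 0.105% of all probe sets did, and 0 passed in dChip values, where 0.00805% did (limma on pool means with the set as a block, Benjamini-Hochberg over all probe sets). At an unadjusted p of 0.05 the counts were 0 and 1, where 569 of 12422 and 264 of 12421 probe sets passed in the same fit. The adjusted p was 1 for every one of the 13 in this limma fit. The 2-way analysis of variance, the model that the methods describe, called 0 in each normalization at an adjusted p of 0.05. At an unadjusted p of 0.05 it gave 1 in GCRMA values, and the share of all probe sets it gave there was not counted. In GCRMA values the difference, COUP-TFI-/- minus wild-type, ran from -0.08 (Hba-x) to 0.17 (an Ank1 probe set). No probe set had both COUP-TFI-/- chips on the same side of both wild-type chips in set A and again in set B, a pattern that 8.26% of all probe sets showed in GCRMA and 8.15% in dChip values. With the brightest probe set per gene, the median GCRMA difference over the 9 genes was 0.05 within set A and -0.05 within set B. Over all probe sets it was 0.01 and 0.00. In dChip values the 9 genes had medians of 0.015 and 0.020, against 0.004 and -0.016 over all probe sets. Of the 9 genes, 2 moved the same way in both sets in GCRMA and 3 in dChip values. The share of all probe sets that did so was not counted. Their genotype differences in the 2 sets had a correlation of 0.002 in GCRMA and -0.138 in dChip values.

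**Figure D2:**
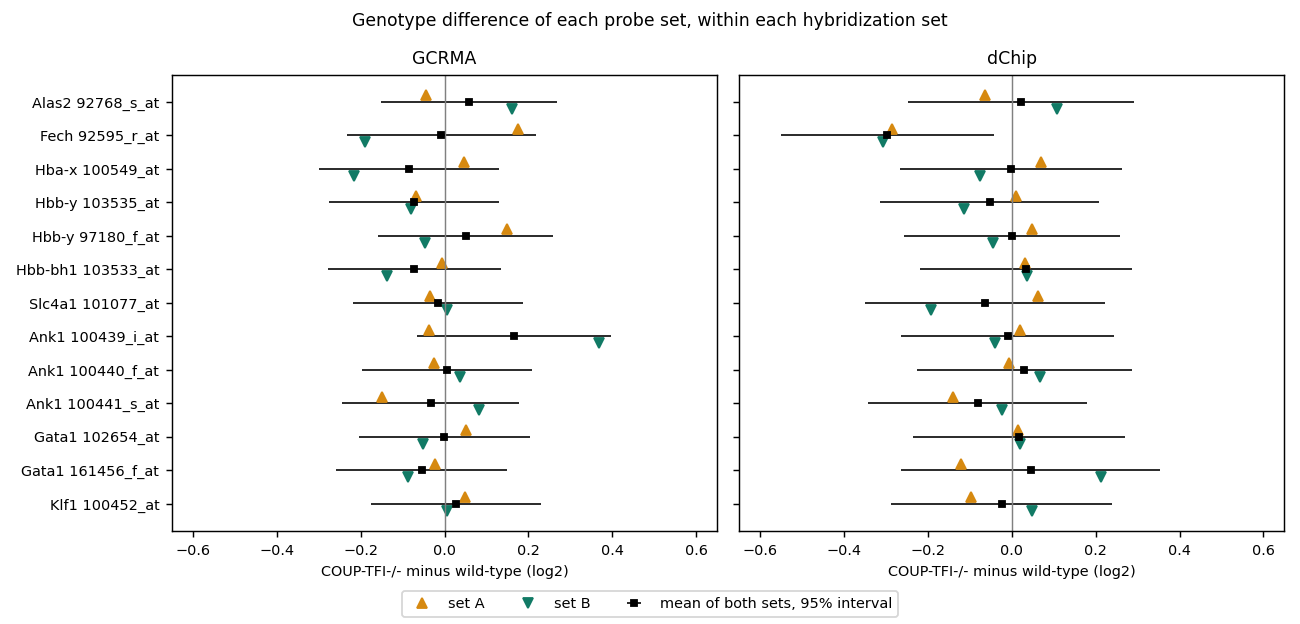
COUP-TFI-/- minus wild-type (log2) for each of the 13 probe sets, in GCRMA (left) and dChip (right) values, with the difference within set A (upward triangles), within set B (downward triangles) and the mean of both with its 95% interval (squares and lines). The triangles of a probe set often lie on opposite sides of 0, and 12 of 13 intervals in dChip and all in GCRMA include 0.

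The comparison of sets gave a different count. In GCRMA values 5 of the 13 probe sets, from 4 genes, were called higher in set A, where 13.6% of all probe sets were, and 0 were called lower, where 12.2% were. In dChip values 4 of the 13, from 3 genes, were called higher, where 6.76% of all were, and 0 lower, where 4.90% were. All 4 dChip calls were among the 5 GCRMA calls. With dim dChip values raised to 16 instead of 1, no probe set on the array was called, these 4 included. Every set A chip lay above every set B chip for 6 of the 13 in both normalizations (17.1% of all probe sets in GCRMA and 20.1% in dChip), and below for 1 of the 13 (20.0% and 20.4%), which was Klf1 in GCRMA and Hba-x in dChip values. A set is both a separate pair of RNA pools and a separate hybridization, and these cannot be told apart.

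**Figure D3:**
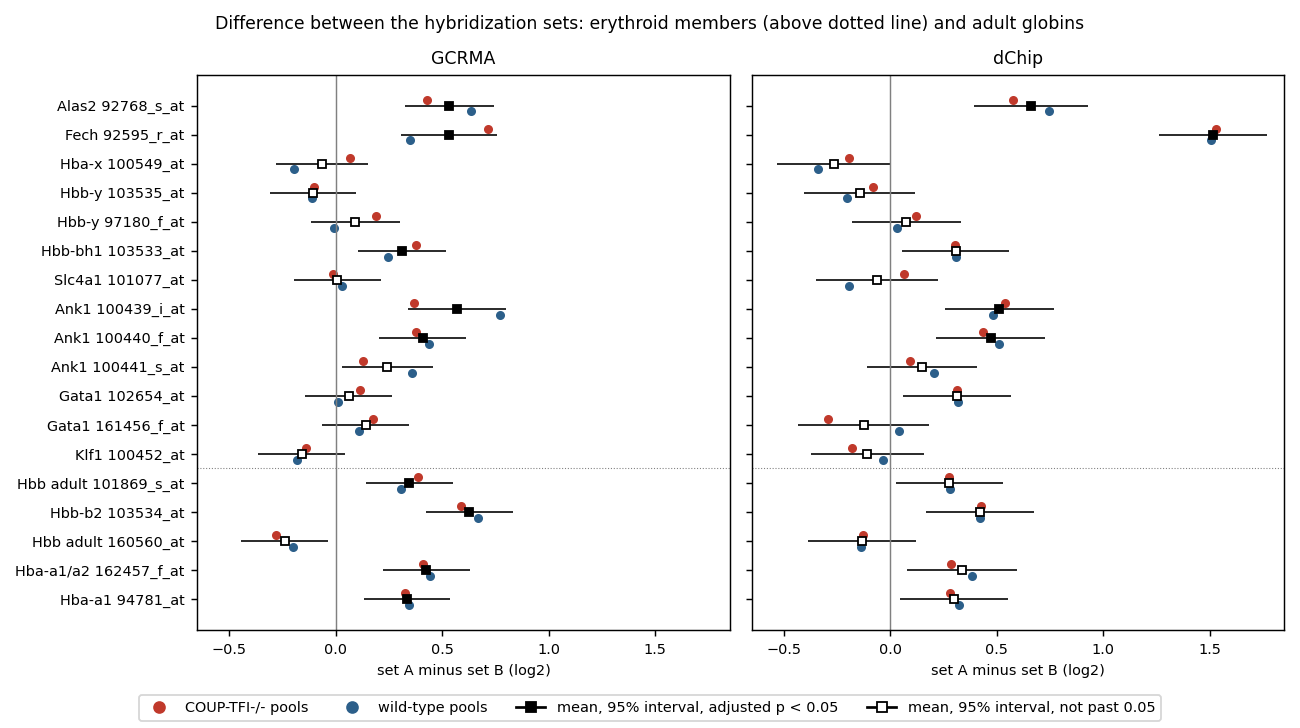
Set A minus set B (log2) in GCRMA (left) and dChip (right) values for the 13 erythroid and embryonic globin probe sets and, below the dotted line, 5 adult globin probe sets. Red points are the COUP-TFI-/- pools and blue points the wild-type pools, squares are means with 95% intervals, and filled squares mark an adjusted p under 0.05; Alas2, Fech and both bright Ank1 probe sets are filled in both panels.

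Heme synthesis was represented by its first and last erythroid steps. Alas2 (probe set 92768_s_at, gene on chromosome X from 150547417 to 150570622 of GRCm38.p6) read 9.55, 9.58, 9.10 and 9.16 on chips A1, A2, B1 and B2 of the COUP-TFI-/- pools, against 9.56, 9.65, 8.93 and 9.02 on the same chips of wild-type (GCRMA). The 4 set A chips were above the 4 set B chips, within set A the genotypes overlapped, and within set B the COUP-TFI-/- chips were the higher ones. The means were 9.35 ± 0.25 in COUP-TFI-/- and 9.29 ± 0.37 in wild-type (SD over 4 chips each). The set difference was 0.43 in COUP-TFI-/- and 0.64 in wild-type pools, 0.53 on average (1.45-fold, adjusted p = 0.00109), and in dChip intensities it was 1.58-fold (adjusted p = 0.0245). For genotype the difference was 0.06 ± 0.10 (SE; 95% interval -0.15 to 0.27), made up of -0.05 from set A and 0.16 from set B. In dChip values the chips of the 2 genotypes did not overlap within either set: COUP-TFI-/- read 964 and 953 in set A, against 985 and 1019 in wild-type, and 613 and 675 in set B, against 588 and 607 in wild-type. The direction was opposite in the 2 sets, and the interaction did not pass the threshold (adjusted p = 0.409).

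Fech, ferrochelatase, was read by one dim probe set (92595_r_at, whose suffix marks relaxed probe selection) at the 9.02 percentile of mean level in GCRMA and the 2.76 percentile in dChip values. In dChip intensities it read 36.6, 38.8, 10.6 and 16.1 on COUP-TFI-/- chips A1, A2, B1 and B2, against 46.5, 45.4, 11.9 and 22.0 on wild-type chips. The set A chips were about 3 times as bright as the set B chips, with a fitted ratio of 2.86 (adjusted p = 0.00401), while the GCRMA ratio was 1.45 (adjusted p = 0.00182). The duplicate wild-type chips of set B were 0.88 apart on the log2 scale. Its genotype difference was -0.30 ± 0.10 in dChip (SE; 95% interval -0.55 to -0.04; adjusted p = 1, limma) and -0.01 ± 0.11 in GCRMA values. The dChip difference was -0.14 after quantile normalization, and with single chips left out it ran from -0.52 (without wild-type B1) to -0.08 (without wild-type B2). Within set A the normalizations gave opposite directions, with COUP-TFI-/- lower by 0.29 in dChip and higher by 0.17 in GCRMA values.

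The regions before the transcription starts are shown for Alas2, which was higher in set A, and for Hbb-y and Klf1, which were not called, because GATA1 and KLF1 act through short sites in such regions. Each sequence is the 250 bases before the RefSeq start, written in the gene's direction (GRCm38.p6), and capitals mark GATA sites.
Alas2, chrX:150547167-150547416, plus strand: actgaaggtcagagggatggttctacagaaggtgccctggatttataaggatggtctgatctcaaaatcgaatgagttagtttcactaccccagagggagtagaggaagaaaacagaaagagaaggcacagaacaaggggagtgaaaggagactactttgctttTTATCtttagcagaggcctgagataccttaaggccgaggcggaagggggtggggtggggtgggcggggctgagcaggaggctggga
Hbb-y, chr7:103853208-103853457, minus strand: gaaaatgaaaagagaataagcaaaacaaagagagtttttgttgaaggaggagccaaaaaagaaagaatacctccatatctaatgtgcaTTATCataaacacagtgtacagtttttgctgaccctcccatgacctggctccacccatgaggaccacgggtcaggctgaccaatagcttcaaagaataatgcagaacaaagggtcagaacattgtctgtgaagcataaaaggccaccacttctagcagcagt
Klf1, chr8:84901732-84901981, plus strand: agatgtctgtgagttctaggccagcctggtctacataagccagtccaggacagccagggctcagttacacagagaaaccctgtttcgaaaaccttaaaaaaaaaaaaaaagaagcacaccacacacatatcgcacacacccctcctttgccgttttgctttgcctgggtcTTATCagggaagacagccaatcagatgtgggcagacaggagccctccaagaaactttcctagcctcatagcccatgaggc
Matches were searched on both strands for a GATA site (GATAA), a site for KLF factors (CCACCC) and the half-site of nuclear receptors such as COUP-TFI (AGGTCA), and 22.6%, 28.1% and 14% of 32851 RefSeq windows of this length held at least 1. Alas2 held 1 GATA site, 86 bases before its start, 3 KLF sites, neighbouring ones of which share 1 base, and 1 half-site. Hbb-y held 1 of each, and Klf1 held 1 GATA site, 80 bases before its start, and neither of the others. Windows of Hba-x (1 GATA site and 1 KLF site) and Gata1 (1 KLF site) were also read, so 5 of the 9 genes were covered. Of the genes called between sets only Alas2 was covered. Fech was left out of the search, and Ank1 and Hbb-bh1 had no window to read.

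The embryonic globins, which pair in the hemoglobins of primitive red cells, were not called together. Hbb-bh1 (103533_at) was at the 71 percentile in GCRMA values and read 8.32, 8.39, 7.94 and 8.01 on COUP-TFI-/- chips A1, A2, B1 and B2, against 8.40, 8.32, 8.12 and 8.11 on wild-type chips. Every set A chip was above every set B chip, by 0.38 in COUP-TFI-/- and 0.25 in wild-type pools (adjusted p = 0.0272). The ratio was nearly the same in dChip values, 1.24-fold in each normalization, but there the adjusted p was 0.105. The GCRMA call was lost without COUP-TFI-/- chip A1 (adjusted p = 0.0574) or wild-type chip B1 (adjusted p = 0.0616).

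Hba-x, the zeta globin gene (100549_at), read 6.08, 6.28, 6.31 and 5.92 on COUP-TFI-/- chips, against 6.23, 6.04, 6.26 and 6.39 on wild-type chips, and the sets overlapped (-0.06, adjusted p = 0.685). In dChip intensities its set A chips, from 173 to 193, were all below its set B chips, from 208 to 238, without passing the threshold (adjusted p = 0.149). Hbb-y, which encodes an embryonic beta-like chain, was read by 2 probe sets that ran in opposite directions between sets, neither called. On 103535_at the GCRMA levels of all 8 chips lay between 5.92 and 6.24, with a set difference of -0.11 (adjusted p = 0.446). On 97180_f_at, whose suffix marks probes shared within a gene family, they lay between 6.51 and 6.73, with a set difference of 0.09 (adjusted p = 0.535). That probe set read 6.69, 6.73, 6.53 and 6.51 on COUP-TFI-/- chips A1, A2, B1 and B2, against 6.56, 6.57, 6.56 and 6.58 on wild-type chips. The COUP-TFI-/- chips thus lay above wild-type in set A and below it in set B.

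Adult globin transcripts were among the brightest on the array, 4 of their 5 probe sets standing at the 99.2 percentile or above in GCRMA values. Hbb-b2 (103534_at), an adult beta chain, read 12.95, 12.85, 12.27 and 12.36 on COUP-TFI-/- chips A1, A2, B1 and B2, against 12.94, 12.79, 12.17 and 12.22 on wild-type chips. Its set difference of 0.63 was called (adjusted p = 0.000238), as were those of 101869_s_at, shared by the adult beta genes (0.35, adjusted p = 0.0149), of 162457_f_at, shared by Hba-a1 and Hba-a2 (0.43, adjusted p = 0.00415), and of Hba-a1 on 94781_at (0.34, adjusted p = 0.0171). In dChip values the same 4 were higher in set A by 0.28 to 0.42, with adjusted p from 0.0546 to 0.127, so none was called. The other beta probe set, 160560_at, was at the 2.55 percentile and ran the other way (-0.24, adjusted p = 0.078). Genotype differences of the 5 probe sets ran from -0.04 to 0.08 in GCRMA values, and all had an adjusted p of 1. Summed over Hba-a1 and Hbb-b2, linear GCRMA signal was 20850 to 29106 on COUP-TFI-/- chips and 20467 to 29173 on wild-type chips.

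Among the membrane proteins, Slc4a1, the band 3 anion exchanger that also serves acid secretion in the kidney, was called in neither comparison. It read 7.05, 7.03, 7.12 and 6.98 on COUP-TFI-/- chips, against 7.10, 7.04, 6.94 and 7.15 on wild-type chips. All groups overlapped, with a genotype difference of -0.01 ± 0.10 (SE; 95% interval -0.22 to 0.19) and a set difference of 0.01 (adjusted p = 0.966). In dChip intensities its set B chips read 205 and 196 in COUP-TFI-/-, against 229 and 230 in wild-type, a difference of -0.19 that did not recur in set A (0.06).

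Ank1 was read by 3 probe sets, and 2 of them were called between sets. On 100439_i_at, which has fewer probes of its own than usual, COUP-TFI-/- chips A1, A2, B1 and B2 read 9.06, 9.12, 8.84 and 8.61, against 9.10, 9.16, 8.33 and 8.38 on wild-type chips. The sets separated fully (0.57, adjusted p = 0.00132), and within set B the COUP-TFI-/- chips were above the wild-type chips by 0.37, while in set A the difference was -0.04. The interaction of -0.41 had an unadjusted p of 0.008 and an adjusted p of 0.154 (limma on 8 chips, resting on the spread of duplicates). In dChip intensities the same probe set showed no such split, with 546 and 501 in set B of COUP-TFI-/- against 536 and 539 in wild-type.

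On 100440_f_at, Ank1 read 9.13, 9.21, 8.86 and 8.72 on COUP-TFI-/- chips, against 9.24, 9.15, 8.73 and 8.79 on wild-type chips, with a set difference of 0.41 (adjusted p = 0.00561) and a genotype difference of 0.01 ± 0.10 (SE). In dChip values the set differences of 100439_i_at and 100440_f_at were 0.51 (adjusted p = 0.0371) and 0.47 (adjusted p = 0.0441). Leaving out COUP-TFI-/- chip A1 or B2, or wild-type chip A1 or B1, ended both dChip calls. The third probe set, 100441_s_at, had levels from 6.22 to 6.63 and a set difference of 0.24 that was not called (adjusted p = 0.0861).

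A short form of ankyrin 1 is also made in striated muscle, so the muscle genes were read beside it. Their 12 listed genes were all on the array, and all 12 averaged higher in COUP-TFI-/- in both normalizations. In GCRMA values 2 passed the genotype test (Myh3 and Myh8, embryonic and perinatal myosin heavy chains), where 0.105% of all probe sets did, and in dChip values 0 did, with an adjusted p of 1 for both genes. The median GCRMA difference over the list was 0.01 within set A but 0.90 within set B. Of the 12, 7 passed the interaction test in each normalization, which 0.958% of all probe sets did in GCRMA and 0.459% in dChip values. Of the 13 erythroid and globin probe sets 0 did, with 2 in GCRMA and 0 in dChip values at an unadjusted p of 0.05. By the analysis of variance 0 of the 13 passed an adjusted p of 0.05, and in GCRMA values 3 passed an unadjusted p of 0.05. For neither interaction test was the share of all probe sets past an unadjusted p of 0.05 counted, so these counts have no background. Summed linear GCRMA signal of the muscle genes was 15279 to 16430 on the COUP-TFI-/- chips and 9055 to 15766 on the wild-type chips, where set B gave 9055 and 9355. Acta1, skeletal alpha actin, had pool means of 12.90 (A) and 12.88 (B) in COUP-TFI-/-, against 12.93 (A) and 11.96 (B) in wild-type. The lowest mean GCRMA level among the listed muscle genes was 6.37 (Ryr1). The part of muscle RNA in the Ank1 values was not tested.

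Of the precursor factors, Klf1, which activates adult beta-globin, read 7.37, 7.40, 7.54 and 7.51 on COUP-TFI-/- chips A1, A2, B1 and B2, against 7.41, 7.27, 7.55 and 7.49 on wild-type chips (100452_at). All 4 set A chips were below all 4 set B chips, with a mean difference of -0.16, opposite to Alas2, and the difference was not called (adjusted p = 0.237). Its genotype difference was 0.03 ± 0.10 (SE; 95% interval -0.18 to 0.23). Klf1 passed the set test when the duplicate chips were taken as replicates (adjusted p = 0.0389).

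Gata1, the zinc finger factor required for erythroid maturation, had 2 probe sets. On 102654_at it read 7.32, 7.41, 7.27 and 7.23 on COUP-TFI-/- chips, against 7.27, 7.35, 7.27 and 7.33 on wild-type chips, with a set difference of 0.06 (adjusted p = 0.679) and a genotype difference of 0.00 ± 0.10 (SE). In dChip intensities every set A chip, from 541 to 552, was above every set B chip, from 402 to 472, with a difference of 0.31 that was not called (adjusted p = 0.0999). On 161456_f_at the GCRMA levels ran from 6.43 to 6.66. Between sets this second probe set was 0.14 higher in set A in GCRMA (adjusted p = 0.304) and lower in dChip values (-0.13, adjusted p = 0.52).

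Other genes of the red cell lineage were read from lists chosen with earlier results of these data known. Of 56 genes for heme synthesis, membrane, regulators, and enzymes and iron, 38 were on the array, and 0 were called for genotype in either normalization, with GCRMA differences from -0.17 to 0.22. Between sets 3 were called higher in set A and 2 lower in GCRMA values, both smaller shares of the 38 than the 13.6% and 12.2% of all probe sets, and the median set difference over the 38 genes was 0.02, against -0.02 over all probe sets. The 3 higher genes, named after their values were seen, were Tfrc, the transferrin receptor (0.30, adjusted p = 0.0302), Bpgm, the red cell bisphosphoglycerate mutase (0.56, adjusted p = 0.00179), and Xpo7, an export factor of maturing erythroblasts (0.84, adjusted p = 8.72e-05). The 2 lower genes were Urod, an enzyme of heme synthesis (-0.31, adjusted p = 0.0284), and Epor, the erythropoietin receptor (-0.34, adjusted p = 0.0193). In dChip values Xpo7 and Epor kept their calls.

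The brightest genes of each list had genotype differences from -0.17 to 0.06 in GCRMA values, and the lowest, that of Alad, was also the lowest of the 38 genes. In heme synthesis these were Hmox1, which degrades heme, and Alad, the second enzyme of the pathway, with genotype differences of 0.05 and -0.17. Among membrane genes Add1 and Dmtn, which cap and bundle the actin of the skeleton, differed by 0.05 each. Gata2 and Bcl2l1, a precursor factor and a survival factor, differed by 0.06 and 0.03. Prdx2, an abundant red cell peroxidase, differed by -0.11 and Tfrc by 0.04, and none of the adjusted p was under 1. In dChip values Hmox1, Alad, Gata2 and Tfrc ran the other way, at -0.02, 0.14, -0.09 and -0.001. The other genes named here kept their direction.

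Genes of the other blood and vessel cells were read as well. Platelet genes (5 on the array) had a median set difference of -0.18, neutrophil granule genes (12) of -0.03 and B cell genes (9) of -0.15 in GCRMA values. Neutrophil genes were called both ways in GCRMA values, 2 higher in set A and 2 lower, where 13.6% and 12.2% of all probe sets were. In dChip values 0 of them were called. Of the B cell genes 0 were called higher and 2 lower in GCRMA values. In dChip values 1 was called higher and 0 lower, where 6.76% and 4.90% of all probe sets were. Platelet genes had 0 calls between sets in GCRMA values, and 1 was called lower in dChip values. Macrophage genes averaged higher in COUP-TFI-/- in 9 of 10, by a median of 0.13, with 0 called for genotype. Between sets 1 of them was called higher in set A in GCRMA values. Endothelial genes had 3 of 9 called higher in set A, among them Emcn (0.50, adjusted p = 0.00165), a sialomucin of venous and capillary vessels, and inner ear genes had 7 of 12 called higher, with a median of 0.44, where 13.6% of all probe sets were. One inner ear gene was called lower, Atoh1, a transcription factor required for hair cells (-0.36, adjusted p = 0.0128, and -0.55, adjusted p = 0.0358, in dChip values, where 6 were called higher). Summed linear signal of the inner ear genes was 6757 to 7211 on set A chips and 4371 to 5176 on set B chips, and that of the endothelial genes was 3571 to 3806 on set A chips and 3210 to 3329 on set B chips. The part of these cells in the set difference of Alas2, Fech, Ank1 and the globins was not tested.

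**Figure D4:**
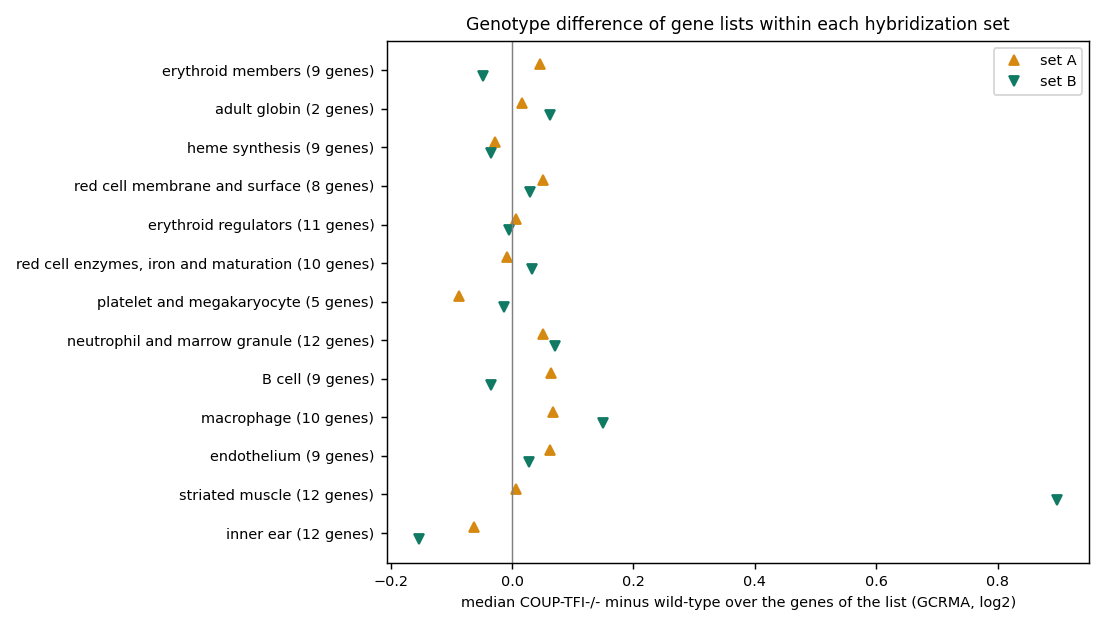
Median COUP-TFI-/- minus wild-type (GCRMA, log2) over the genes of each list, within set A (upward triangles) and set B (downward triangles), with the 9 erythroid and embryonic globin genes at the top. Their medians lie at 0.05 and -0.05, while the striated muscle genes lie at 0.01 (A) and 0.90 (B).

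Over the 8 GCRMA chips, the 5 of 10820 other probe sets with a single symbol whose levels ran most like Alas2 were those of Ercc5 (r = 0.9945), Smad4 (0.9915), Smarcc1 (0.9907), Txndc16 (0.9906) and Prpf38b (0.9901). With Alas2, the members themselves ran from r = 0.9483 for Ank1 (100439_i_at) to -0.9062 for Klf1, and the adult Hbb-b2 probe set reached 0.9662. Those most like the mean of the 9 centred genes were Prom1 (0.9923), Itih2 (0.9854), Tead4 (0.9843), Pgd (0.9833) and Ddx46 (0.9831). The chips are 4 pairs of duplicates that also share their set, so these correlations describe how the levels ran across the chips and were not tested.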

How the data were processed

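Newborn inner ear RNA pools were hybridized to 8 MG-U74Av2 chips. The authors deposited each chip as GCRMA values on a log2 scale and as dChip values, a linear intensity, and all 16 columns were used here. The version of each normalization program is not given in the sources used here. The 66 Affymetrix controls were left out. A dChip value under 1 was set to 1 (89 values) and log2 was taken; 1 probe set without dChip values left 12421 there. Duplicate chips share an RNA pool, so limma 3.58.1 (R 4.3.3) was fitted to the 4 pool means with genotype and set as terms, which leaves 1 residual degree of freedom beside the prior. The interaction was fitted on 8 chips. Set letters pair the pools because the labels give each set its own hybridization time. p-values were 2-sided and adjusted over all probe sets by Benjamini-Hochberg, and the number of chips limits the precision. Fits were tested on simulated data with planted genotype differences of 1 log2 unit. That simulation had noise between chips but none between pools, so it did not cover pool-to-pool spread. Platform symbols named probe sets (10833 with 1 symbol, 396 with several, 1193 with none). All members were named, along with adult globins, up to 2 of the brightest genes per list, and called genes where few. The members and lists were chosen with earlier results of these data known. Alternatives were the 8-chip fit, no block, 2-way analysis of variance, quantile normalization, leaving out dim probe sets, a dChip floor of 16 and leaving out each chip.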

Additional observations from a re-analysis of the deposited data

Results flagged for a closer look

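Fech in GCRMA values stood out because both COUP-TFI-/- chips were above both wild-type chips in set A and below them in set B, with a difference of 0.37 between the 2 genotype differences (interaction adjusted p = 0.255, limma on 8 chips). Hbb-y on 97180_f_at showed the same pattern in GCRMA values, with 0.20 (adjusted p = 0.399). Alas2 in dChip values showed the opposite one, below in set A and above in set B, with -0.17 (adjusted p = 0.409). None of these interactions passed the threshold.

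Gata1 on 161456_f_at had 1 wild-type chip, B1, apart from the others in GCRMA values, at 6.43 against 6.65 for the nearest. Its gap was 0.949 of the range of the 4 chips, over Dixon's critical value at the 95% level. The same was looked for in 52 groups of 4 chips, and this was the only one past that value. Chance puts about 1 in 20 groups past it only where the 4 values are independent. The chips of a group are duplicates of pools from different sets, so that rate does not apply here. How many of the 52 groups chance alone would put past the value was not tested.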

How the results depend on the processing

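The count of genotype calls was 0 of the 13 probe sets in both normalizations under every alternative run, and so was that of interaction calls. Without the set as a block, in the unpaired fit, 0 genotype calls and 5 set calls were made in GCRMA values and 0 and 6 in dChip values. In GCRMA values the count of set calls became 8 under the 2-way analysis of variance and 7 in the fit to 8 chips. In dChip values it became 7 in both. These fits take duplicates of a pool as replicates, and they also called more of the whole array. The whole-array count in GCRMA values was 3747 under the analysis of variance and 5731 in the 8-chip fit, against 3205 as reported. In dChip values it was 4891 and 6275, against 1449. With the dChip floor at 16 the count of set calls was 0, as it was over all probe sets. At an unadjusted p of 0.05 it was 7 of the 13, and the share of all probe sets there was not counted. The adjusted p of the 4 lost calls was 0.0554 to 0.0807 (limma). Leaving out single chips gave 4 or 5 set calls in GCRMA and 2 to 4 in dChip values. The dChip count was 2 each time COUP-TFI-/- A1 or B2 or wild-type A1 or B1 was left out. The whole-array count of GCRMA set calls moved as well, from 2046 to 3309 with single chips left out. It was 2859 without the block and 2664 after quantile normalization, against 3205 as reported. Quantile normalization turned Fech to 0.0089 for genotype and Slc4a1 to -0.0070 for the set (GCRMA), and Hbb-bh1 lost its set call (adjusted p = 0.0573). Over the 9 genes the median genotype difference was -0.022 in set A with all probe sets and 0.020 in set B in dChip values. The causes of these changes were not tested.

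Differences that no test called changed sign when single chips were left out. For genotype in GCRMA values they ran from -0.030 to 0.042 for Ank1 (100440_f_at), -0.084 to 0.017 for Ank1 (100441_s_at), -0.090 to 0.075 for Fech, -0.022 to 0.021 for Gata1 (102654_at), -0.11 to 0.0035 for Gata1 (161456_f_at), -0.18 to 0.014 for Hba-x, -0.0060 to 0.061 for Klf1 and -0.068 to 0.039 for Slc4a1. For genotype in dChip values they ran from -0.013 to 0.056 for Alas2, -0.041 to 0.022 for Ank1 (100439_i_at), -0.041 to 0.076 for Gata1 (102654_at), -0.022 to 0.11 for Gata1 (161456_f_at), -0.036 to 0.031 for Hba-x, -0.011 to 0.079 for Hbb-bh1, -0.047 to 0.049 for Hbb-y (97180_f_at) and -0.075 to 0.027 for Klf1. Between sets in GCRMA values they ran from -0.16 to 0.034 for Hba-x and -0.046 to 0.062 for Slc4a1. No called set difference changed direction under any alternative.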
